A study of Mus musculus with 8 samples.

Results

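A pair of labelled groups of RAW264.7 cells were compared gene by gene: the 2 libraries labelled TubB (Tubuloside B alone) and the 2 libraries labelled mock (DMSO, the solvent), which are 4 of the 8 libraries of the series. RAW264.7 is a mouse macrophage-like cell line that grew from a tumour induced by a murine leukaemia virus. The other 4 libraries carry the label LPS_IFNg (lipopolysaccharide at 10 ng/ml with interferon-γ at 20 ng/ml for 24 h) or LPS_IFNg_TubB (that stimulus with Tubuloside B), 2 each. The sources used here give no dose of Tubuloside B and no time for the mock and TubB groups. The quantity measured was polyadenylated RNA, counted per gene without regard to strand. Nothing in the labels says whether replicates were separate cultures, so p-values measure only the spread between these samples, which may be technical.

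The labels and 2 marker genes conflict, and the deposited labels are kept here. Nos2 encodes inducible nitric oxide synthase, the enzyme that makes nitric oxide in macrophages stimulated by bacterial products and interferon-γ. In CPM, which are counts scaled so that libraries of different depth can be compared, Nos2 stood at 176 and 155 in the libraries labelled mock and at 6964 and 5762 in those labelled TubB. It stood at 199 and 166 in the libraries labelled LPS_IFNg, whose label carries the stimulus, and at 7429 and 6156 in those labelled LPS_IFNg_TubB. Igfbp4, a secreted protein that binds insulin-like growth factors, stood at 159 and 155 CPM under the mock label and at 10.3 and 16.7 CPM under the TubB label. It stood at 149 and 177 CPM under the LPS_IFNg label and at 9.18 and 12.9 CPM under the LPS_IFNg_TubB label. Both genes thus split the 8 libraries by the TubB label, with no overlap, and not by the stimulus label. Across all genes tested, LPS_IFNg minus mock had 0 of 11081 genes called by edgeR. "The TubB libraries" below means the libraries that carry that label, and a direction drawn from them is only as sound as the label.

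Macrophages that meet lipopolysaccharide and interferon-γ are known to switch on cytokines, nitric oxide synthesis and antigen presentation, to change their metabolism, and to divide less. Tubuloside B is a phenylethanoid glycoside found in Cistanche plants. Because cytokine, chemokine, interferon-induced and pattern-recognition genes are the usual read-out of macrophages, 446 tested genes of those families were set apart as the usual inflammatory markers, and the account is about the other 10635. The usual markers took 2.76% and 2.83% of the counts in the mock libraries and 9.37% and 8.37% in the TubB libraries.

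The libraries hold 4767894 to 8413834 counts, with 6648055 and 6435249 for mock and 5017410 and 8413834 for TubB. Of 20 macrophage markers in the count table, 15 were tested, and the lysozyme Lyz2 and the protease Ctsd were abundant in each of the 4 libraries, Lyz2 at 4383.7 CPM or more and Ctsd at 5783 CPM or more. The macrophage receptor Adgre1 (F4/80) rose from 11.6 and 13.1 CPM to 85.4 and 77.3 CPM, while Mertk had 0 counts in the series. Of 13 T and NK cell markers, 11 had 0 counts, Cd3e and Cd8a among them. Their summed level was 0 in both mock libraries and at most 0.220 CPM in a TubB library. The neutrophil and mast cell list summed to 5.63 to 6.42 CPM in mock and 32.3 to 52.5 CPM in TubB, nearly all of it S100a8, with S100a9 and Ly6g at 0. The B cell list summed to 67.7 to 67.9 CPM in mock and 101 to 134 CPM in TubB, nearly all of it Blnk. The dendritic cell list summed to 40.4 to 43.7 and 40.5 to 54.5 CPM, with Flt3 at 0, and its 2 tested members moved apart. The chemokine receptor Xcr1 rose from 0.140 and 0.721 to 21.5 and 8.80 CPM (5.03 ± 0.61 log2, with 4.31 without TubB replicate 1 and 4.29 without mock replicate 1). Without mock replicate 2, Xcr1 had 1 count in mock, a ratio of 96.2-fold higher with an exact 95% interval of 17.03 to 3822. The integrin Itgax fell from 43.4 and 39.2 to 32.3 and 30.9 CPM (-0.39 ± 0.13 log2). With 1 library left out the Itgax change was -0.46 to -0.32 log2, and with DESeq2 it was not called (DESeq2 adjusted p = 0.069). The fibroblast, epithelial and endothelial list summed to 32.2 to 39.5 and 25.9 to 29.2 CPM, with Krt18 at 0. The part of these genes in the results was not tested. In bulk RNA, fewer cells of a type and less RNA per cell cannot be told apart.

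The 4 promoter windows below are shown because they belong to genes described first: the surface receptors Slamf8 and Slamf7 and the growth factor binding protein Igfbp4, which lead the rises and falls outside the usual markers among genes of at least 3 log2 CPM on average, and the growth regulator Mycn, the most abundant of the 12 largest falls by the same rule. They come from RefSeq's GRCm38.p6 promoter table, which is the build of the count table, and run from 250 bases before to 50 bases after a start given there. In the order below they are chr1:172590519-172590818 (minus strand), chr1:171648950-171649249 (minus strand), chr11:99040994-99041293 (plus strand) and chr12:12941787-12942086 (minus strand). For Slamf8, Slamf7 and Igfbp4 that start lies inside the outer bounds of the gene model. Capitals mark matches, on either strand, to GAS (TTCNNNGAA), ISRE (GAAANNGAAA), κB (GGGANNNNCC), E-box (CACGTG), the E2F motif (TTTGGCG), the CCAAT box and the AP-1 motif (TGANTCA).
Slamf8: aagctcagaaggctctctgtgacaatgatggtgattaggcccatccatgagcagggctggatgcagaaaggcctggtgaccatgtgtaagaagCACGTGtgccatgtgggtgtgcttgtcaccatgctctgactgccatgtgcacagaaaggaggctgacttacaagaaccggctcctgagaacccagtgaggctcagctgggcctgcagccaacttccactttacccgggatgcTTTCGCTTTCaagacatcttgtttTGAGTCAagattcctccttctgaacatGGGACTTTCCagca
Slamf7: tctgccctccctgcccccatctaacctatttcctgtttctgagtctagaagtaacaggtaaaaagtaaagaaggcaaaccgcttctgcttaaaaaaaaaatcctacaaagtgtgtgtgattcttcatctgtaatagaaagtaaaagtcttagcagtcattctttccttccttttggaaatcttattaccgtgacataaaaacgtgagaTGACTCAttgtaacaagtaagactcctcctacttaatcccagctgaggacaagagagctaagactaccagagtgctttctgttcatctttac
Igfbp4: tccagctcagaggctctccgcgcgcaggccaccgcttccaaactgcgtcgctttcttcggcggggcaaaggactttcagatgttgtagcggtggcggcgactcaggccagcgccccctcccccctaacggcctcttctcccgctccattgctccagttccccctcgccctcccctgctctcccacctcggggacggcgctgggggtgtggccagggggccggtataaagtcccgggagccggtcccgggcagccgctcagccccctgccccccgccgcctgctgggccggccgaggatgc
Mycn: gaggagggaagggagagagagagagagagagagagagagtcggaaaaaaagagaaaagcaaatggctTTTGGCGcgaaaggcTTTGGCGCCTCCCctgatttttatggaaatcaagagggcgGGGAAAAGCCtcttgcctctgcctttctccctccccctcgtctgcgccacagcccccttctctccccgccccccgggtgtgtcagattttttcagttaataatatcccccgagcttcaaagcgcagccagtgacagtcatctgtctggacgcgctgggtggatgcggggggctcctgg
Counting from 1 at the 5′ end, Slamf8 held an E-box at bases 94 to 99, an ISRE at 236 to 245, an AP-1 match at 260 to 266 and a κB match at 287 to 296. Slamf7 held an AP-1 match at 209 to 215. Mycn held E2F matches at 68 to 74 and 83 to 89 and κB matches at 86 to 95, which overlaps the second E2F match, and at 123 to 132. Igfbp4 held none of the 7 patterns in this window.

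Of the 11081 genes tested, 8515 had a promoter in the table and no numbered copy elsewhere in the assembly. A GAS match was found in 7.07% of those 8515 promoters and in 8.42% of the 27025 promoters of the table. Among the usual inflammatory markers called at least 2-fold higher, 19.9% of 181 promoters held one. Outside the usual markers the share was 6.57% of 639 promoters of genes called at least 2-fold higher and 6.58% of 441 promoters of genes called at least 2-fold lower. An ISRE match was in 3.09% of the 8515 promoters of tested genes, in 23.8% of those 181, in 5.32% of those 639 and in 2.27% of those 441 (3.49% of the table). An E2F match was in 2.81% of the 8515, in 1.66% of the 181, in 1.72% of the 639 and in 4.08% of the 441 (1.59% of the table). An AP-1 match was in 4.94% of the 8515, in 16.6% of the 181, in 7.67% of the 639 and in 4.31% of the 441 (7.92% of the table). The κB pattern was in 26.1% of the 8515, in 32% of the 181, in 28.3% of the 639 and in 27.4% of the 441 (20.5% of the table). The E-box was in 10.7% of the 8515, in 6.08% of the 181, in 8.76% of the 639 and in 10.9% of the 441 (7.24% of the table). The CCAAT box was in 39.1% of the 8515, in 32.6% of the 181, in 37.1% of the 639 and in 40.8% of the 441 (38% of the table). These shares are descriptions of letters in a window and were not tested.

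Of the genes tested, 51.2% differed between the TubB and mock libraries. At an adjusted p under 0.05 (edgeR's quasi-likelihood test, Benjamini-Hochberg adjustment over all genes), 2916 of 11081 genes were called higher, 26.3%, and 2755 were called lower, 24.9%. Outside the usual markers the shares were 24.5% higher and 25.5% lower of 10635 genes, whereas 69.7% of the 446 usual markers were higher and 10.5% lower. More of the large changes were rises. Among all called genes, usual markers included, 445 rose past 4-fold and 90 fell past 4-fold. Past 16-fold, 136 rose and 8 fell. At least 2-fold changes numbered 1103 higher (9.95%) and 626 lower (5.65%) over all genes tested, and outside the usual markers 853 higher (8.02%) and 608 lower (5.72%). The median fold of all called genes was 1.71 among those higher and 1.58 among those lower. Libraries of both groups were separate, without overlap, for 5663 of the 5671 called genes, and over all genes tested 37.6% were separate and higher and 38.6% separate and lower.

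**Figure D1:**
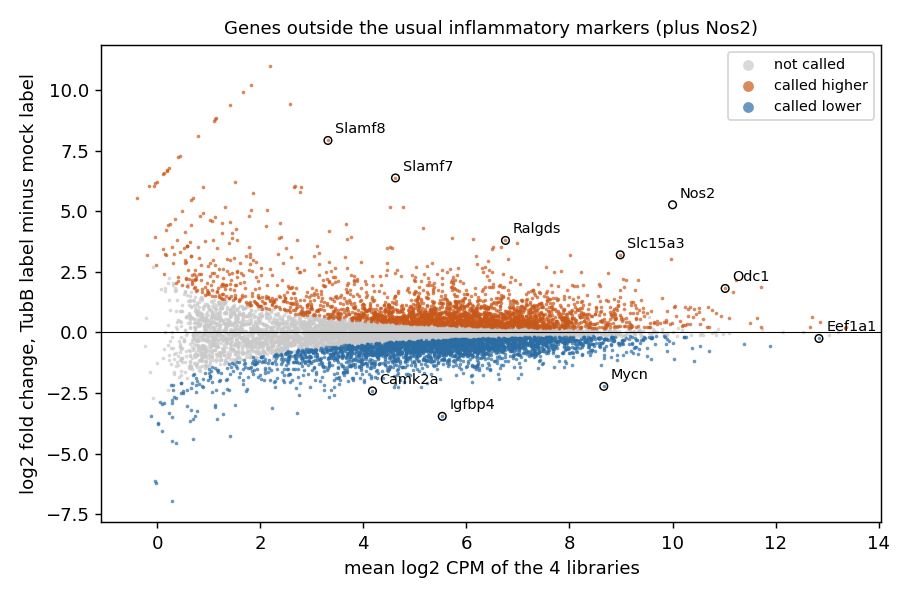
Each point is a gene outside the usual inflammatory markers, plus Nos2. The horizontal axis is the mean log2 CPM over the 4 libraries, the vertical axis the log2 fold change of the TubB label over the mock label, and colour marks the call at an adjusted p under 0.05. Outside the usual markers, 853 genes were called at least 2-fold higher and 608 at least 2-fold lower. With the usual markers included, 445 rose and 90 fell past 4-fold. Nos2, Slc15a3, Mycn and Odc1 are among the labelled changes at high level.

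Among genes of at least 3 log2 CPM on average over the 4 libraries, the 12 largest rises outside the usual markers were led by a pair of receptors of the SLAM family, which sit on leukocyte surfaces. Slamf8 (chr1:172581377-172590873, minus strand) stood at 0.279 and 0.577 CPM in mock and at 109 and 106 CPM in TubB. It rose by 7.92 ± 0.23 on the log2 scale (SE, n = 2 against 2, edgeR adjusted p = 5.2e-22). Slamf7 (chr1:171632403-171653037, minus strand) stood at 2.93 and 2.02 CPM against 227 and 188 CPM, a rise of 6.37 ± 0.18 log2 (edgeR adjusted p = 1.7e-20). Slamf8 was close to undetected in mock, with 2 and 4 counts, whereas Slamf7 had 21 and 14. The TubB replicates of each lay near each other. At lower levels, Gfpt2 had a larger fitted rise than both, and Evl a smaller one. Deptor, also at a lower level, had a larger fitted fall than Igfbp4, which led the falls by this rule.

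Several of the other large rises encode regulators of signalling and transcription. Ralgds, an exchange factor for Ral GTPases, stood at 31.7 and 26.1 CPM in mock and at 403 and 398 CPM in TubB, a rise of 3.79 ± 0.09 log2. Mxd1, a partner of Max that opposes Myc, stood at 7.26 and 8.37 against 189 and 121 CPM (4.29 ± 0.28 log2). Arid5a, an RNA-binding protein known to stabilise inflammatory transcripts, rose from 1.95 and 2.31 to 46.1 and 32.0 CPM (4.16 ± 0.26 log2). Each was separate between the groups. Trafd1, a TRAF-type zinc finger protein known as a feedback regulator of innate signalling, rose by 3.89 ± 0.14 log2. Enc1, an actin-binding Kelch protein, rose by 3.86 ± 0.12 log2, and Tmem132a, a membrane protein, by 3.68 ± 0.10 log2. Perm1, a regulator of muscle mitochondrial genes, rose by 3.93 ± 0.32 log2 from 3.07 and 3.32 CPM. Among the 12, 2 rested on uneven mock replicates. Zfp811, a zinc finger protein, stood at 4.47 and 0.865 CPM in mock and 67.9 and 54.0 CPM in TubB (4.48 ± 0.45 log2), with 6.09 log2 without mock replicate 1 and 3.75 without mock replicate 2. Crybg2 stood at 0.977 and 3.89 against 27.9 and 28.9 CPM (3.55 ± 0.30 log2), with 2.86 log2 without mock replicate 1 and 4.83 without mock replicate 2.

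The 12 largest falls by the same rule included growth regulators and lipid synthesis enzymes. Igfbp4 (chr11:99040005-99052655, plus strand) fell by 3.47 ± 0.15 on the log2 scale, an 11.05-fold decrease (edgeR adjusted p = 1.7e-13). Mycn (chr12:12936093-12941836, minus strand), a transcription factor of the Myc family that drives growth, stood at 919 and 844 CPM in mock and at 175 and 200 CPM in TubB. It fell by 2.23 ± 0.08 log2 (edgeR adjusted p = 3.5e-18). In contrast to Slamf8, which was close to undetected in mock, Igfbp4 and Mycn stayed measurable in every library. Myc itself, named here after its values were seen, moved the other way, from 12.7 and 15.9 CPM in mock to 80.8 and 61.4 CPM in TubB (2.30 ± 0.16 log2, edgeR adjusted p = 4.07e-13). Elovl6, a fatty acid elongase, went from 55.3 and 50.6 CPM to 8.78 and 12.6 CPM (-2.26 ± 0.18 log2). Scd1, the stearoyl-CoA desaturase that makes monounsaturated fatty acids, went from 21.5 and 17.5 CPM to 3.07 and 5.03 CPM (-2.19 ± 0.26 log2). Smo, the transducer of Hedgehog signals, went from 23.6 and 20.9 CPM to 4.17 and 5.03 CPM (-2.24 ± 0.23 log2).

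Among the other falls, Camk2a, a calcium and calmodulin dependent kinase, went from 40.6 and 39.95 CPM to 7.69 and 7.41 CPM (-2.42 ± 0.18 log2). Tfap4, a transcription factor known as a Myc target, went from 29.2 and 24.4 CPM to 2.64 and 5.53 CPM (-2.60 ± 0.24 log2, and -3.33 without TubB replicate 2). Cdca7, a Myc and E2F target of dividing cells, changed by -2.25 ± 0.18 log2, and Sapcd2, a regulator of spindle orientation, by -2.67 ± 0.25 log2. Mcf2l, a guanine nucleotide exchange factor, changed by -2.14 ± 0.20 log2, and the zinc finger gene Zfp651 by -2.36 ± 0.23 log2. L3hypdh, an enzyme of hydroxyproline breakdown, changed by -2.38 ± 0.28 log2, but 45.5% of its exon length overlaps Gm3225 and Gpr135, and counting without strand cannot separate them. In all 24 genes the lowest library of the higher group lay above the highest of the lower group, as the naming rule required.

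**Figure D2:**
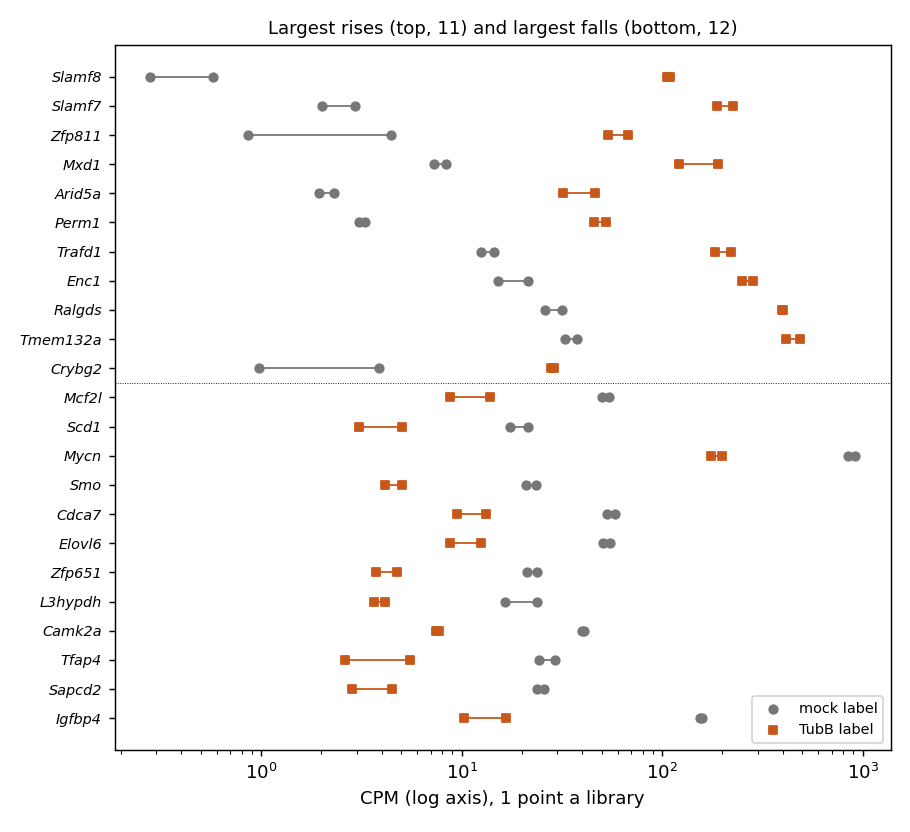
Of the 12 largest rises, 11 (top), and the 12 largest falls (bottom) outside the usual inflammatory markers, with CPM on a log axis, 1 point a library and a line joining the 2 replicates of a label. The groups are separate in every row. The widest mock pairs are those of Zfp811 (4.47 and 0.865 CPM) and Crybg2 (0.977 and 3.89 CPM).

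Growth signalling genes moved in both directions. Of 9 tested members of the insulin-like growth factor axis, 4 rose and 3 fell (background 26.3% and 24.9%). Beside Igfbp4, the ligand Igf1 fell from 9.07 and 12.5 CPM to 3.51 and 2.26 CPM (-1.96 ± 0.33 log2). The RNA-binding protein Igf2bp2 rose from 117 and 112 to 262 and 263 CPM (1.20 ± 0.08 log2). The receptors changed less: Insr rose by 0.44 ± 0.12 log2 and Igf2r, which clears ligand, by 0.21 ± 0.07 log2. In the mTORC1 and nutrient sensing list, 14 of 41 rose and 7 fell, the latter 4 without TubB replicate 1 and 4 without mock replicate 2. A pair of stress-induced inhibitors of mTORC1 rose, Ddit4 (REDD1) from 3.91 and 2.88 to 29.6 and 22.6 CPM (2.91 ± 0.27 log2) and Sesn2 from 23.3 and 33.3 to 92.9 and 71.5 CPM (1.52 ± 0.16 log2). Another inhibitor moved the other way: Deptor fell from 9.21 and 6.92 to 0.220 and 0.503 CPM (-4.28 ± 0.55 log2). Without TubB replicate 2, Deptor had 1 count in TubB, a ratio of 36.8-fold lower with an exact 95% interval of 6.48 to 1467. Of the TGF-β and BMP list, 12 of 28 rose and 6 fell (3 fell without TubB replicate 1, without TubB replicate 2 or without mock replicate 2). Id2, an inhibitor of basic helix-loop-helix factors and a BMP target, rose from 36.0 and 31.3 to 202 and 174 CPM (2.48 ± 0.10 log2), and the co-receptor Eng by 1.48 ± 0.14 log2. The signal transducer Smad3 fell from 5.02 and 8.65 to 2.20 and 1.51 CPM (-1.93 ± 0.42 log2). In the Wnt and Notch list, 10 of 29 rose (6 without TubB replicate 1, 5 without mock replicate 1) and 5 fell (3 without mock replicate 1). The Notch glycosyltransferase Mfng fell by 1.36 ± 0.16 on the log2 scale, and the Wnt receptor Fzd5 rose by 0.95 ± 0.16 log2.

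Small GTPase and second messenger lists had members called in both directions. Among Ras regulators, 12 of 36 rose and 8 fell, shares near those over all genes (26.3% and 24.9%), with a median log2 change of 0.01 beside -0.01 over all genes. Rapgef2, an exchange factor for Rap1, rose from 94.8 and 94.9 to 578 and 518 CPM (2.53 ± 0.08 log2). Rasa4, a calcium-responsive GTPase activator for Ras, rose from 28.1 and 34.3 to 236 and 165 CPM (2.67 ± 0.18 log2). Among guanine nucleotide exchange factors, Arhgef3 rose from 2.51 and 3.61 to 23.9 and 19.3 CPM (2.80 ± 0.27 log2), and Plekhg2 rose by 2.28 ± 0.28 log2, opposite to Mcf2l. Of the cyclic nucleotide list, 9 of 31 rose and 11 fell (7 without TubB replicate 1). The cAMP phosphodiesterase Pde4b, a degrading enzyme, rose from 18.3 and 18.6 to 115 and 106 CPM (2.58 ± 0.13 log2). Of the producing enzymes, the adenylate cyclase Adcy6 fell from 32.4 and 29.9 to 6.59 and 9.05 CPM (-1.95 ± 0.20 log2). The guanylate cyclase Gucy2g had the largest rise of the list (3.01 log2, and 2.83 to 3.24 with 1 library left out). Of G proteins and their RGS regulators, 12 of 32 rose (7 without mock replicate 1) and 8 fell. Rgs1, which shortens chemoattractant receptor signals, rose by 2.01 ± 0.12 log2 and Gna13, a G protein alpha subunit, by 1.47 ± 0.08 log2. The protein kinase C and phospholipase C list had 8 of 25 higher and 9 lower (5 without TubB replicate 1 or without mock replicate 1), with Dgkh up by 1.57 ± 0.13 log2.

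Actin and dynein genes were called higher far more often than lower, and kinesins the reverse. Over all genes tested, 26.3% were called higher and 24.9% lower. Of 60 actin nucleation and filament regulators, 29 rose and 3 fell, with a median log2 change of 0.27. Hcls1, the haematopoietic relative of cortactin, rose from 385 and 375 to 948 and 870 CPM (1.26 ± 0.07 log2), and Nckap1l, the WAVE complex subunit of blood cells, from 317 and 351 to 757 and 684 CPM (1.11 ± 0.07 log2). Evl, which promotes filament elongation, was close to undetected in mock at 0.140 and 0.288 CPM and stood at 8.56 and 8.17 CPM in TubB. With 3 counts in mock and 104 in TubB, the ratio was 39.1-fold higher with an exact 95% interval of 13 to 192.5, and 59.6-fold without mock replicate 2. Of 26 subunits and partners of dynein and dynactin, the motor for transport towards the cell centre, 12 rose and 2 fell (median 0.27 log2). The heavy chain Dync1h1 rose from 870 and 821 to 1770 and 1727 CPM (1.05 ± 0.07 log2), and the dynein partner Ndel1 by 1.29 ± 0.11 log2. Its close relative Nde1, which acts in mitosis, fell by 0.70 ± 0.12 on the log2 scale. Of 29 kinesins, 16 fell and 7 rose, the latter 4 without TubB replicate 1 and 3 without mock replicate 1, and the median was -0.48 log2. The 2 mitotic kinesins Kif18a and Kif2c went from 28.6 and 23.2 to 5.71 and 7.79 CPM (-1.90 ± 0.22 log2) and from 68.7 and 66.2 to 27.0 and 35.2 CPM (-1.09 ± 0.13 log2). Kifc3, a minus-end motor at junctions and membranes, fell by 1.57 ± 0.16 on the log2 scale. Among surface molecules, the semaphorin receptor Plxna1 rose from 324 and 312 to 762 and 779 CPM (1.28 ± 0.07 log2) and the protocadherin Pcdh7 from 292 and 291 to 820 and 691 CPM (1.37 ± 0.09 log2). The tetraspanins were split, 6 higher and 6 lower of 16, with Cd53 up by 1.06 ± 0.07 log2 and Cd81 down from 18.3 and 25.5 to 7.03 and 6.91 CPM (-1.65 ± 0.24 log2).

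Membrane traffic genes were called higher more often than lower in most lists, and the SNARE and ESCRT lists had the highest shares of rises among lists of at least 20 tested members. Of 40 SNARE proteins and partners, which fuse vesicles with target membranes, 23 rose and 3 fell (median 0.38 log2). These are 57.5% and 7.5%, beside 26.3% higher and 24.9% lower over all genes tested. Stx11, a syntaxin of cytotoxic and phagocytic cells, rose from 9.91 and 13.4 to 61.9 and 54.5 CPM (2.31 ± 0.16 log2). Another syntaxin, Stx2, rose by 1.07 ± 0.12 log2. Of 27 ESCRT and multivesicular body genes, which sort membrane cargo into lysosomes, 15 rose and 3 fell (median 0.34 log2). Hgs, the cargo recognition subunit, rose from 99.6 and 96.1 to 184 and 171 CPM (0.86 ± 0.09 log2) and Chmp4b, which forms the scission filament, by 0.84 ± 0.09 log2, whereas Mvb12b fell by 0.87 ± 0.12 on the log2 scale. Of 40 Rab GTPases, the switches of vesicle identity, 19 rose and 5 fell (3 fell without TubB replicate 1, 2 without mock replicate 1 and 3 without mock replicate 2). Rab43 rose from 27.6 and 26.0 to 106 and 93.4 CPM (1.89 ± 0.12 log2), and Rab20, a phagosome Rab, from 23.6 and 22.4 to 74.7 and 68.5 CPM (1.63 ± 0.15 log2). Their regulators were less one-sided, 24 higher and 17 lower of 71. Tbc1d9 rose from 55.1 and 61.2 to 278 and 240 CPM (2.15 ± 0.09 log2), while Tbc1d16 fell from 112 and 111 to 39.5 and 44.1 CPM (-1.41 ± 0.11 log2). Of 34 sorting nexins and retromer genes, 15 rose and 5 fell (3 without mock replicate 1), with Snx10, an endosomal nexin needed in osteoclasts, up from 55.3 and 67.9 to 204 and 207 CPM (1.74 ± 0.10 log2). The COPI and COPII coats of the early secretory route did not share this direction: 8 of 36 rose and 8 fell, and the rises numbered 4 without TubB replicate 1, 4 without mock replicate 1 and 5 without mock replicate 2. Both shares of the coat list were 22.2%, near those over all genes. The COPII subunit Sec24b rose by 0.87 ± 0.08 log2 and the cargo receptor Lman1 fell by 0.45 ± 0.09 on the log2 scale.

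**Figure D3:**
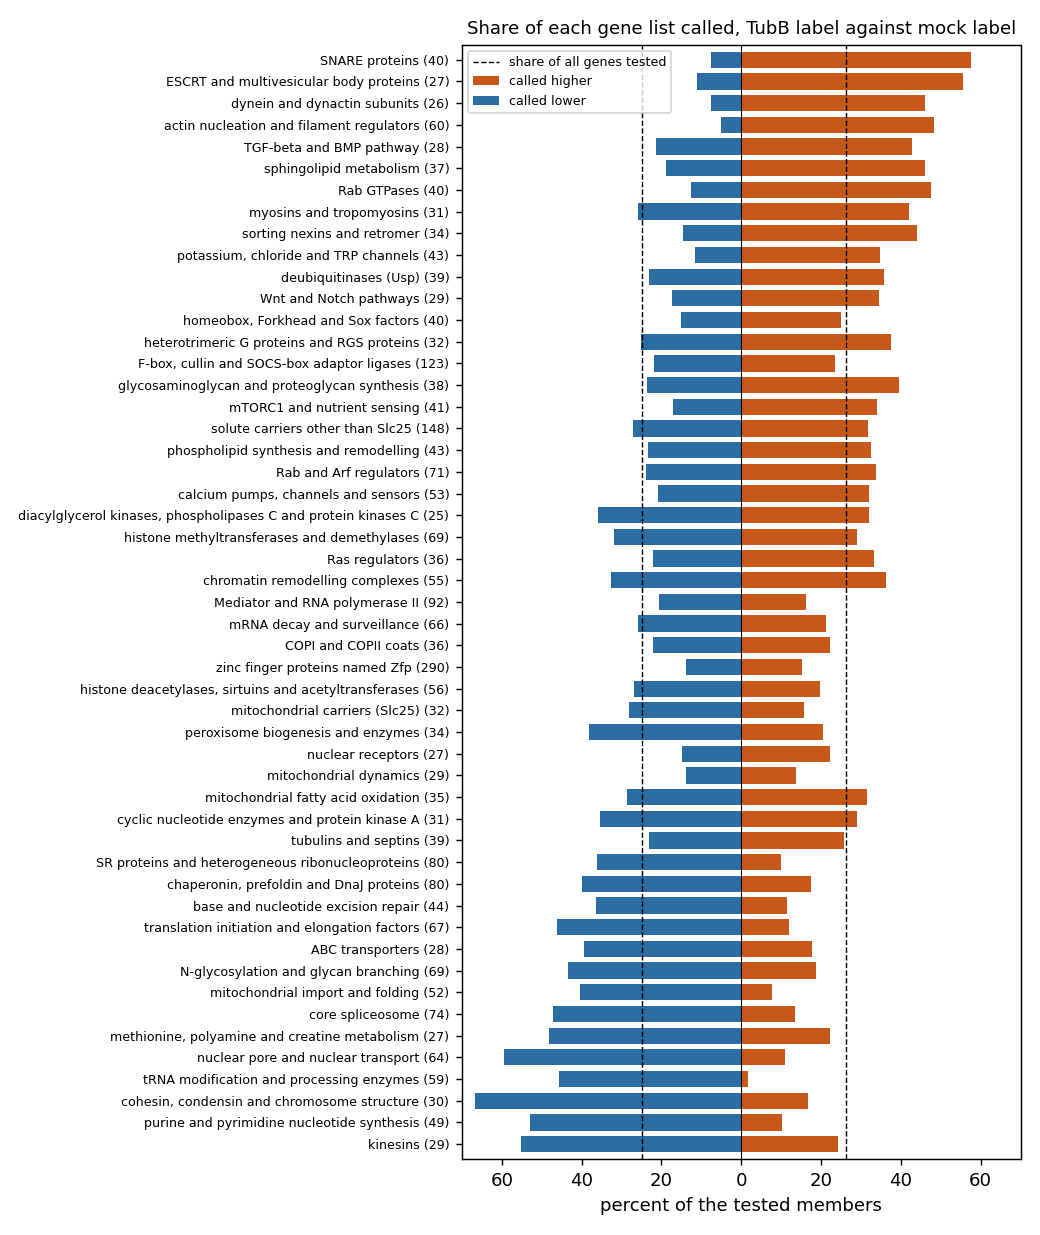
Share of each gene list called higher (right) or lower (left) in TubB against mock, in percent of the tested members, whose number is in parentheses. Dashed lines mark the shares over all genes tested (26.3% higher, 24.9% lower), and the lists shown, each with at least 20 tested members, are ordered by their median. SNARE, ESCRT, dynein and actin lists are at the top, and kinesins, nucleotide synthesis, cohesin and condensin, and tRNA modification are at the bottom.

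Genes of RNA processing and translation were called lower more often than higher (26.3% of all genes were higher and 24.9% lower). Of 59 tRNA modification and processing enzymes, 27 fell and 1 rose, the methyltransferase homologue Trmt1l (0.78 ± 0.13 log2), and the median was -0.40 log2. Pus7, a pseudouridine synthase, went from 60.1 and 50.3 to 17.3 and 20.7 CPM (-1.52 ± 0.15 log2). Nsun2, a cytosine methyltransferase, went from 321 and 301 to 177 and 193 CPM (-0.74 ± 0.08 log2). Trmt1l, Nsun2 and the receptors Insr and Igf2r above were picked after their values were seen. Of 64 nuclear pore and transport genes, 38 fell and 7 rose (median -0.33 log2). Nup85, a scaffold nucleoporin, went from 116 and 116 to 45.5 and 48.8 CPM (-1.29 ± 0.11 log2), and the lamin Lmnb1, which lines the nuclear envelope, from 166 and 140 to 39.97 and 61.9 CPM (-1.55 ± 0.21 log2). Of 74 core spliceosome genes, 35 fell and 10 rose (5 without mock replicate 1). Snrpd1, a subunit of the Sm ring, went from 79.3 and 82.1 to 31.4 and 39.6 CPM (-1.16 ± 0.13 log2). Of 80 SR and heterogeneous ribonucleoprotein genes, 29 fell and 8 rose (4 without mock replicate 1). Hnrnpa3 went from 929 and 827 to 453 and 494 CPM (-0.89 ± 0.07 log2), while Mbnl2, a regulator of alternative splicing, rose from 97.0 and 89.3 to 235 and 203 CPM (1.23 ± 0.09 log2). Of 67 translation factors, 31 fell and 8 rose (5 without mock replicate 2). Eif2b3, a subunit of the exchange factor for eIF2, fell by 1.05 ± 0.13 on the log2 scale, whereas Denr, which acts in re-initiation, rose from 194 and 190 to 412 and 381 CPM (1.05 ± 0.07 log2), and Eif1, which guards start codon choice, rose by 1.03 ± 0.09 log2. mRNA decay genes were balanced, 14 higher and 17 lower of 66, shares near those of all genes. The anti-proliferative deadenylation cofactors Btg1 and Btg2 rose from 41.3 and 49.3 to 263 and 216 CPM (2.40 ± 0.12 log2) and from 8.93 and 9.66 to 53.8 and 43.1 CPM (2.37 ± 0.18 log2), and the exosome subunit Exosc6 fell by 1.23 ± 0.15 on the log2 scale.

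Nucleotide synthesis and mitochondrial import genes were also called lower more often than higher (all genes: 26.3% higher and 24.9% lower). Of 49 genes of purine and pyrimidine synthesis, 26 fell and 5 rose (2 without TubB replicate 2, 2 without mock replicate 1 and 3 without mock replicate 2), with a median of -0.47 log2. Gart, which catalyses several steps of purine synthesis, went from 203 and 203 to 63.5 and 83.9 CPM (-1.44 ± 0.11 log2), and Adssl1, an adenylosuccinate synthase, from 134 and 164 to 49.6 and 53.7 CPM (-1.52 ± 0.12 log2). The members that rose most act in recycling of nucleosides and adenylate: the purine phosphorylase Pnp rose from 53.7 and 51.9 to 298 and 213 CPM (2.26 ± 0.16 log2) and the mitochondrial adenylate kinase Ak4 from 36.1 and 54.7 to 181 and 153 CPM (1.87 ± 0.25 log2). Of 52 mitochondrial import and folding genes, 21 fell and 4 rose, with the chaperonin Hspd1 down from 1059 and 973 to 479 and 550 CPM (-0.98 ± 0.07 log2). Of 29 genes of mitochondrial dynamics, 4 rose and 4 fell. The mitochondrial DNA factor Tfam fell by 0.83 ± 0.14 and the coactivator Ppargc1b by 1.02 ± 0.15 on the log2 scale. In the methionine and polyamine list 13 of 27 fell, but the 2 polyamine enzymes Odc1, which makes putrescine, and Smox, which oxidises spermine, rose from 1178 and 1045 to 4152 and 3645 CPM (1.81 ± 0.07 log2) and from 25.5 and 23.7 to 132 and 90.6 CPM (2.16 ± 0.17 log2). Fatty acid oxidation was split, 11 higher (7 without TubB replicate 2) and 10 lower of 35. The dehydrogenase Hadh fell by 1.22 ± 0.15 on the log2 scale and the ligase Acsl1, which activates fatty acids, rose by 1.05 ± 0.09 log2.

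Lipid and glycan lists had members called in both directions (26.3% of all genes were higher and 24.9% lower). Of 37 sphingolipid genes, 17 rose and 7 fell. The 2 sphingosine phosphate receptors moved apart: S1pr2 rose from 32.5 and 36.8 to 99.7 and 74.1 CPM (1.31 ± 0.13 log2), and S1pr1 fell from 8.93 and 10.5 to 2.20 and 2.64 CPM (-1.97 ± 0.34 log2). The ceramide synthase Cers6 rose by 1.06 ± 0.09 log2. Of 43 phospholipid genes, 14 rose and 10 fell, with the lysosomal phospholipase-like Pld3 up from 132 and 149 to 565 and 483 CPM (1.89 ± 0.08 log2) and the glycerol phosphate acyltransferase Gpat3 up from 0.558 and 0.288 to 13.4 and 11.6 CPM (4.80 ± 0.45 log2). Of 69 N-glycosylation genes, 30 fell and 13 rose. The glucosidase Mogs, which trims the new glycan, went from 155 and 131 to 54.5 and 69.98 CPM (-1.18 ± 0.15 log2). The 2 sialyltransferases St3gal1 and St6gal1 moved apart, the first from 43.7 and 47.3 to 203 and 164 CPM (2.01 ± 0.11 log2) and the second from 21.5 and 20.2 to 6.59 and 5.15 CPM (-1.86 ± 0.24 log2). Gfpt2, which feeds the hexosamine pathway, had 0 counts in both mock libraries and 125 and 170 counts in TubB, which makes it at least 111-fold higher with a floor of 3 counts over the mock group (at least 54.5-fold without mock replicate 1 and 56.3-fold without mock replicate 2).

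Transporters were mixed and contained some of the large changes at high level. Of 148 solute carriers outside the mitochondrial family, 47 rose and 40 fell. These are 31.8% and 27.0%, near the 26.3% and 24.9% of all genes tested. Slc15a3, a lysosomal peptide and histidine transporter, rose from 163 and 172 to 1677 and 1399 CPM (3.20 ± 0.09 log2). Of 28 ABC transporters, 11 fell and 5 rose (3 without TubB replicate 2, 1 without mock replicate 1). The cholesterol exporter Abca1 went from 22.5 and 15.001 to 7.25 and 8.67 CPM (-1.21 ± 0.28 log2), and its relative Abca2 fell by 1.16 ± 0.14 on the log2 scale. Of 43 potassium, chloride and TRP channels, 15 rose and 5 fell (3 without TubB replicate 1). Clcn7, the chloride and proton exchanger of lysosomes, rose from 120 and 107 to 363 and 349 CPM (1.65 ± 0.08 log2), the mechanically gated channel Piezo1 from 282 and 266 to 580 and 541 CPM (1.03 ± 0.08 log2), and the endolysosomal channel Mcoln2 by 1.10 ± 0.13 log2. In the calcium list, 17 of 53 rose and 11 fell, 32.1% and 20.8%, also near the shares of all genes. Mcub, an inhibitory subunit of the mitochondrial calcium uniporter, was up by 1.47 ± 0.14 log2.

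Chromatin and transcription lists had no common direction. Over all genes tested, 26.3% were called higher and 24.9% lower. Mediator and RNA polymerase II genes were below both shares, at 16.3% and 20.7%, as were the Zfp genes and the nuclear receptors. These differences in share were not tested. Of 290 zinc finger genes named Zfp, 44 rose and 40 fell, 15.2% and 13.8%, and the falls numbered 24 without TubB replicate 1 and 22 without mock replicate 2. Of 92 Mediator and RNA polymerase II genes, 15 rose and 19 fell (12 without mock replicate 1, 9 without mock replicate 2), with the elongation factor Ell2 up from 91.5 and 88.0 to 252 and 217 CPM (1.38 ± 0.09 log2). Of 69 histone methyltransferases and demethylases, 20 rose and 22 fell, 29.0% and 31.9%. Kdm6b, a demethylase of H3K27 induced in activated macrophages, rose from 25.1 and 19.6 to 77.7 and 67.7 CPM (1.69 ± 0.17 log2), and Kdm3a rose by 1.84 ± 0.11 log2. Of 55 chromatin remodelling genes, 20 rose (13 without TubB replicate 1, 12 without mock replicate 2) and 18 fell, Arid5b among the rises (1.70 ± 0.13 log2). Of 56 deacetylases, sirtuins and acetyltransferases, 11 rose (7 without TubB replicate 1 or mock replicate 1) and 15 fell (9 without TubB replicate 1). Hdac9 fell from 17.6 and 14.9 to 1.32 and 3.52 CPM (-2.60 ± 0.33 log2, and -3.59 without TubB replicate 2), and Sirt2 rose by 1.24 ± 0.10 log2. Of 27 nuclear receptors, 6 rose and 4 fell, 22.2% and 14.8%. Nr1h2 (LXR-β) rose from 46.3 and 49.9 to 102 and 90.0 CPM (0.99 ± 0.11 log2), and its partner Rxra fell from 103 and 100 to 57.8 and 64.0 CPM (-0.73 ± 0.10 log2).

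Genome maintenance genes were called lower more often than higher, beside 26.3% higher and 24.9% lower over all genes. Of 30 cohesin, condensin and chromosome structure genes, 20 fell and 5 rose (median -0.43 log2). The cohesin subunit Smc3 went from 130 and 125 to 63.0 and 81.9 CPM (-0.80 ± 0.10 log2), and the condensin subunit Ncaph from 68.0 and 66.6 to 30.5 and 39.8 CPM (-0.91 ± 0.13 log2). Of 44 excision repair genes, 16 fell, a count of 10 without TubB replicate 1, mock replicate 1 or mock replicate 2, and 5 rose (2 without TubB replicate 1, 3 without mock replicate 2). The endonuclease Apex1 went from 136 and 124 to 40.6 and 47.2 CPM (-1.55 ± 0.11 log2). Of 11 tested histone genes, 5 fell and 2 rose, with the linker histone H1f0 down from 144 and 150 to 36.9 and 49.0 CPM (-1.75 ± 0.11 log2). Among genes of at least 5 log2 CPM, the 5 that differed most between the TubB replicates were Tk1, Tdp1, Cdc25b, Nuf2 and Wdhd1, and all 5 were lower in replicate 1 than in replicate 2. Of these, Cdc25b and Nuf2 were also lower in replicate 1 of LPS_IFNg_TubB, at 25.9 and 37.8 CPM and at 24.6 and 39.0 CPM. Tk1, the thymidine kinase of S phase, stood at 71.5 and 62.6 CPM in mock and at 13.6 and 26.3 CPM in TubB (-1.68 ± 0.20 log2, and -2.29 without TubB replicate 2). Cdc25b, a phosphatase that starts mitosis, stood at 80.1 and 78.3 against 21.3 and 41.8 CPM (-1.26 ± 0.28 log2, and -1.88 without TubB replicate 2). Cdc25b lost its call without mock replicate 1 (edgeR adjusted p = 0.063) and without mock replicate 2 (0.056), and the kinetochore gene Nuf2 without mock replicate 1 (0.060).

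Folding factors were called lower more often than higher, and ubiquitin adaptors about equally in both directions. Of 80 chaperonin, prefoldin and DnaJ proteins and related folding factors, 32 fell and 14 rose (9 without mock replicate 1). Fkbp4, a partner of Hsp90, went from 392 and 371 to 148 and 165 CPM (-1.28 ± 0.08 log2), and Fkbp11, a folding factor of the secretory route, from 37.3 and 32.2 to 9.004 and 10.2 CPM (-1.84 ± 0.19 log2). Of 123 F-box, cullin and SOCS-box adaptors, 29 rose (19 without mock replicate 1, 18 without mock replicate 2) and 27 fell, with Kbtbd11 down by 1.78 ± 0.15 on the log2 scale. Of 39 deubiquitinases of the Usp family, 14 rose and 9 fell, 35.9% and 23.1%, and Usp12 rose by 1.15 ± 0.13 log2.

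**Figure D4:**
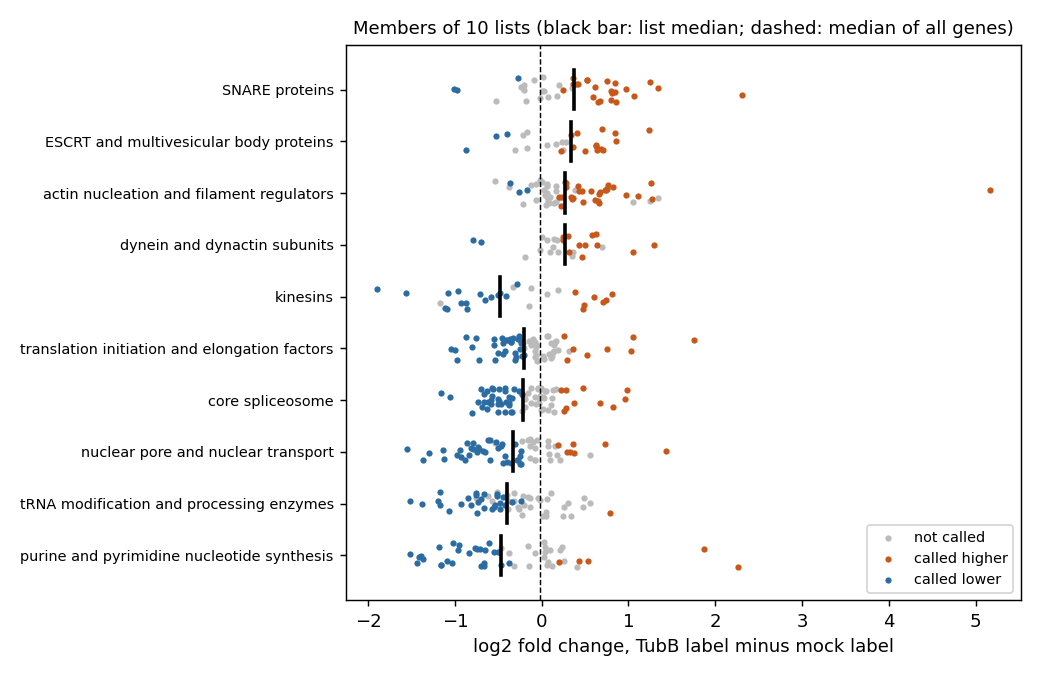
Log2 fold change, TubB label minus mock label, of every tested member of 10 lists, 1 point a gene, with colour for the call, a black bar for the list median and a dashed line for the median of all genes (-0.01). SNARE medians sit at 0.38 and kinesin medians at -0.48, and each list has members on both sides of 0.

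Some of the most abundant transcripts barely moved. Per kilobase of exon, the ferritin light chain Ftl1 stood at 9802 CPM per kb in mock and 9819 in TubB, a log2 difference of 0.00 ± 0.07. Lyz2 differed by 0.02 ± 0.06 log2, Ctsd by 0.02 ± 0.06 log2 and the collagen-degrading protease Ctsk by -0.10 ± 0.07 log2, none of them called. The ferritin heavy chain Fth1 (0.20 ± 0.06 log2) and the elongation factor Eef1a1 (-0.25 ± 0.06 log2) were called despite their size. In the fit of only mock and TubB libraries with a replicate block, both lost the call, with edgeR adjusted p-values of 0.236 and 0.113, and Fth1 lost it also without TubB replicate 1 (0.066) and without mock replicate 1 (0.129). In all, 2812 genes, 25.4%, had a 95% interval within 0.5 log2 of 0. Of the 5410 genes not called, 1379 had an interval that reached past 1 log2, so that for them a 2-fold change was not excluded.

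The pair of groups that carries the stimulus label gave closely similar values with none of the same libraries. In LPS_IFNg_TubB minus LPS_IFNg, 2903 genes were called higher and 2768 lower, 51.2% of the genes tested. Genes called in both comparisons numbered 4819, which is 85% of each list, and all 4819 had the same direction. Slamf8 rose there by 7.61 ± 0.23 log2 beside 7.92, Igfbp4 changed by -3.85 ± 0.17 beside -3.47, and Mycn by -2.22 ± 0.08 beside -2.23. All 24 genes named for size were called there in the same direction. The difference between the 2 effects was tested directly, and 0 of 11081 genes passed with edgeR (smallest adjusted p 0.9999). At an unadjusted p under 0.05 there were 277 genes, a smaller share than 0.05 of those tested. With 2 libraries a group, differences of small size could go uncalled. DESeq2 and limma-voom also called 0. Among the named genes, Smo changed by -1.45 ± 0.23 log2 there beside -2.24, and Scd1 by -1.69 ± 0.27 beside -2.19, differences that did not pass this test.

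**Figure D5:**
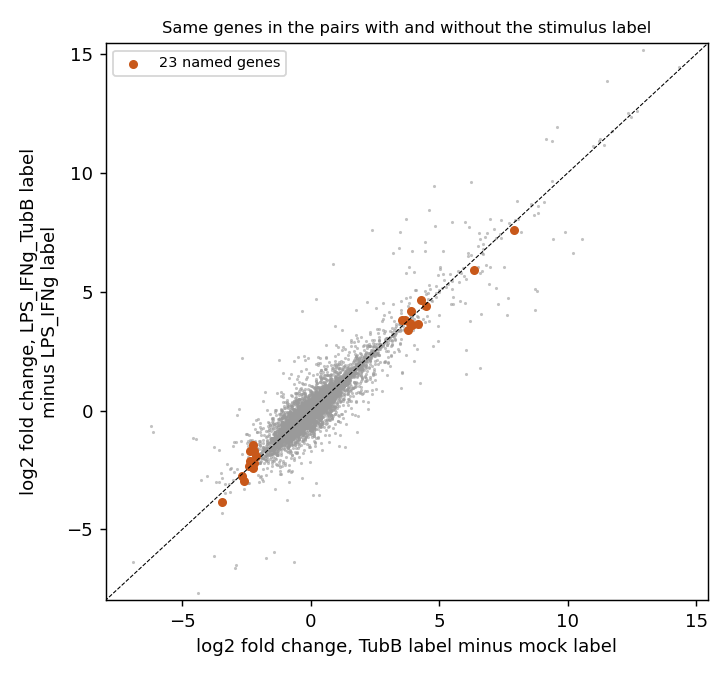
Log2 fold change of each tested gene in LPS_IFNg_TubB minus LPS_IFNg (vertical) against TubB minus mock (horizontal), 2 comparisons without a shared library. The dashed line marks equal values, and orange points are 23 of the 24 genes named for size, all of which lie in the same direction in both.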

How the data were processed

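The authors deposited raw read counts per gene for 8 libraries. The aligner was STAR 2.7.0, per the submitters' processing notes. Per the file headers, featureCounts 2.0.1 counted read pairs over exons of the RefSeq annotation of GRCm38.p6, and per the labels the kit kept no strand. The table has 42454 rows, of which 18955 hold a count. The authors also deposited regularised log2 values (rlog), used here as an alternative only, and each gene's summed exon length, a value of other unit (bases), used for levels per kilobase. 

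Genes were tested with edgeR 4.0.16 (R 4.3.3, quasi-likelihood, robust) on the deposited counts with TMM factors, all 8 libraries, group as the only term, and the filterByExpr filter (minimum count 10, minimum total 15), which kept 11081 genes. Calls are at a Benjamini-Hochberg adjusted p under 0.05. CPM uses TMM-scaled library sizes. SE is the log2 change divided by the root of F. On simulated counts (10916 genes), 60% of 50 genes changed 1.5-fold were recovered, 78% of 50 changed 2-fold and 98% of 50 changed 4-fold. There were 15 false calls among 182 for this comparison. Few genes were changed in the simulation, as many up as down. In the data 51.2% of genes were called and large rises outnumbered large falls, so these rates may not hold there.

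The 64 gene lists, the named-gene rule and the set of usual markers were chosen with earlier results of these data known. Named genes were Nos2 and Igfbp4, the 12 largest called rises and falls (mean level 3 log2 CPM or more), no overlap and no numbered copy, up to 4 called members a list (2 by smallest p where none was called), the 6 most abundant genes per length with an interval within 0.5 of 0, and the 5 genes of at least 5 log2 CPM that differed most between replicates of each label. For readability, mostly list genes at higher levels are described, and a few genes and lists are not reported here. Alternatives were RLE factors, no count filter, 1 CPM in 2 libraries, DESeq2 1.42.0, limma-voom and limma on rlog (3.58.1), the compared libraries only, a replicate block, and leaving out each library. For a gene at 0 in a whole group, 3 counts over that group served as a floor, which covers counting error only.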

Additional observations from a re-analysis of the deposited data

How the results depend on the processing

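Counts of called genes stayed within 1.5 times under the alternatives run, except with limma on rlog values, which shrink large changes: 406 genes were then at least 2-fold higher and 60 at least 2-fold lower, in place of 1103 and 626. Leaving out 1 library at a time gave 2408 to 2987 genes higher, 2127 to 2810 lower, 971 to 1188 at least 2-fold higher and 478 to 850 at least 2-fold lower, and 0 for the difference with the stimulus label. DESeq2 called 2578 higher and 2140 lower. Nothing in the labels says that equal replicate numbers pair samples. Replicate differences of mock and TubB correlated at -0.01 across 11081 genes, those of TubB and LPS_IFNg_TubB at 0.15, those of mock and LPS_IFNg at 0.085, and the other 3 pairs of groups at -0.05 to 0.02. With a replicate block the calls were 2941 higher and 2788 lower (8 libraries), or 2792 and 2649 (mock and TubB only). For list medians, 816 alternative values stayed within the spread between libraries of the same label. Another 170 moved past it, in 54 of 58 lists. The kinesin median ranged from -0.67 to -0.31 log2 and that of tRNA modification from -0.42 to -0.21. The median of Ras regulators ranged from -0.12 to 0.12 and changed sign in 3 of 17 settings. Of the alternative values for named genes, 4514 kept direction and call, 119 lost the call, 4 gained it and 13 changed sign, the last in 5 uncalled genes near 0. Ftl1 was -0.009197 log2 without a count filter, -8.005e-05 without LPS_IFNg replicate 1, -0.0003446 without its replicate 2, -0.008436 without TubB replicate 1, and -0.1062 to 0.1157 without mock replicates 1 or 2. Ctsd was -0.01669 and -0.01381 without TubB or mock replicate 1, and up to 0.06881 otherwise. Lyz2 was -0.02669 without TubB replicate 1 and -0.009187 without mock replicate 2, and up to 0.07738. Gpx1 was -0.3078 and -0.24 in the same settings, and up to 0.4384. Slc48a1 was -0.09087 without TubB replicate 2 and -0.2546 without mock replicate 1, and up to 0.4344. The cause was not tested. Depth limits genes of low level: the median SE was 0.489 log2 in the lowest of 5 equal classes by level and 0.082 in the highest.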

Other observations

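Of 512 long non-coding RNAs tested, 101 were called higher (19.7%) and 50 lower (9.77%), beside 26.9% and 26% of 10162 protein-coding genes, and their median level was 1.49 log2 CPM beside 5.26. The share called higher was 18.4% in the lowest of 5 equal classes of genes by level and 39.5% in the highest, while the share called lower was 12.1% and 29%. The difference between the classes was not tested, nor was the part of the level in it.

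Among genes of at least 5 log2 CPM, 48 differed over 1.5-fold between the TubB replicates and 21 between the mock replicates. The 5 widest in mock were Slc48a1, a haem transporter, Gpx1, the glutathione peroxidase, Gclm, a subunit of glutathione synthesis, Mob3a and Ndrg1. Gclm stood at 96.4 and 155 CPM in mock and at 179 and 209 CPM in TubB and was not called (0.63 ± 0.31 log2). With a replicate block over the 8 libraries, the log2 fold change of Gclm was 0.644 and it was called (edgeR adjusted p = 1.713e-05). Gpx1 stood at 377 and 235 CPM in mock and at 397 and 247 CPM in TubB (0.06 ± 0.43 log2). Replicate 1 of Gpx1 was the higher also in LPS_IFNg (397 and 255 CPM) and LPS_IFNg_TubB (391 and 272 CPM), while replicate 1 of Gclm was the lower in all 4 groups. Slc48a1 stood at 95.3 and 154 CPM in mock and at 116 and 140 CPM in TubB (0.05 ± 0.32 log2). Ndrg1, a stress and hypoxia responsive gene, rose from 21.1 and 34.04 CPM to 397 and 239 CPM (3.52 ± 0.44 log2) with replicates apart in both groups. Mob3a rose from 17.6 and 28.0 CPM to 54.9 and 47.1 CPM (1.15 ± 0.17 log2).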
